A study of Mus musculus with 2 samples.

Results

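The dystrophin, sarcoglycan and dystrobrevin complex is represented here by 8 genes, Dmd, Utrn, Dag1, Sgca, Sgcb, Sgcd, Sspn and Dtna, taken as every probe set whose only gene symbol in the array annotation is one of them. These genes were read by 25 of the 45101 probe sets of the array, and they are 8 of 18193 genes with such a probe set. The arrays hold total RNA from the diaphragm muscle of C57/BL6 mice at stage E18.5, with 1 array from RP58-/- and 1 array from RP58+/+ (wild type). RP58, now named Zbtb18, is a zinc finger transcriptional repressor. Neither genotype was replicated, and the number of embryos behind a sample is not stated in the labels. No test across embryos was possible for that reason, and no p-value is given.

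The complex joins the cytoskeleton of the muscle fibre to the basement membrane around it. Dystrophin, the product of Dmd, binds actin at its amino end and dystroglycan near its carboxy end, and dystroglycan in turn holds laminin outside the cell. The sarcoglycans and sarcospan form a subcomplex in the membrane that steadies this link, and dystrobrevins and syntrophins form the cytoplasmic part that carries signalling proteins. Loss of dystrophin causes Duchenne muscular dystrophy, and loss of single sarcoglycans causes limb-girdle muscular dystrophies.

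The values are deposited log2 signals, and each difference is the RP58-/- array minus the RP58+/+ array on the log2 scale. Each gene takes the value of its brightest probe set, provided that the mean of both arrays reached a floor of log2 5.52, the 40th percentile over the array. A difference of at least 1.5-fold (0.58 on the log2 scale) was counted as lower or higher, in place of a test. The only repeat measurement is that of different probe sets of a gene, whose differences had a pooled SD of 0.28 around their gene's mean over 5675 genes. That spread covers probes and isoforms, not embryos or dissection.

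Both samples carried muscle transcripts, with the creatine kinase gene Ckm at log2 12.11 on the RP58-/- array and 13.53 on the RP58+/+ array. Zbtb18 itself was read by 1 probe set, at 9.21 on the RP58-/- array and 8.91 on the RP58+/+ array (0.30 higher), and whether it lies in the deleted part is not known here, so it does not check the labels. Sex-linked signal differed: Xist, which silences 1 X chromosome in female cells, was at 6.96 on the RP58-/- array and 11.47 on the RP58+/+ array, and Y-linked Eif2s3y and Kdm5d were at 8.58 and 7.40 on the RP58-/- array and at 3.59 and 4.09 on the RP58+/+ array. The Y-linked gene Uty had differences of 0.37 (brightest probe set) and 3.02 (another), and the X-linked genes Eif2s3x, Kdm6a and Kdm5c differed by -0.92, -0.92 and -0.26 on their brightest probe sets. Their other probe sets above the floor were at -0.61 and -1.24 for Eif2s3x, at -0.40 for Kdm6a and between -0.81 and 0.21 for Kdm5c. Genotype and this sex-linked signal cannot be told apart. Ddx3y had no named probe set. The authors' normalisation had removed any difference in total mRNA. The 18 probe sets of the hybridisation controls had a median difference of -0.04. The 24 probe sets of the poly-A control RNAs had a median difference of -0.75 (range -1.17 to -0.46), so a scale set by their median would add 0.75 to each value. All differences are thus set against the median gene (-0.003).

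The members did not differ alike. Dystrobrevin (Dtna), sarcospan (Sspn) and beta-sarcoglycan (Sgcb) were lower on the RP58-/- array, whereas dystrophin, alpha-sarcoglycan, dystroglycan and utrophin lay within 1.5-fold. The line between Sgcb and Dmd rests on the cut-off, as their probe sets above the floor overlapped (-0.79 to -0.51 for Sgcb and -0.55 to -0.32 for Dmd). Of 7 members above the floor, 3 were lower by at least 1.5-fold and 0 were higher (42.9% lower), against 6.51% lower and 3.83% higher among all 14093 genes above the floor. The members were chosen with earlier results of these data known, so their shares, by gene or by probe set, describe the list and do not test it. On the scale of the poly-A controls, 1 member (Dtna) was lower and 2 (Utrn and Dag1) were higher, Dmd (0.20) and Sgca (0.41) lay above 0 and Sspn (-0.39) and Sgcb (-0.04) below 0, each within 1.5-fold, and of all genes 182 were lower and 9990 higher, against 918 lower and 540 higher on the deposited scale. The members' median difference was -0.55, against -0.003 over all genes. Counted by probe set, 6 of 15 above the floor were lower (40%) and 0 were higher, against 6.49% lower and 3.35% higher among 23061 probe sets with 1 gene symbol. The other 10 member probe sets lay under the floor. The 3 lower genes supplied all 6 lower probe sets, 2 from each gene. In bulk tissue, fewer muscle fibres and less of a transcript in each fibre cannot be told apart.

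**Figure D1:**
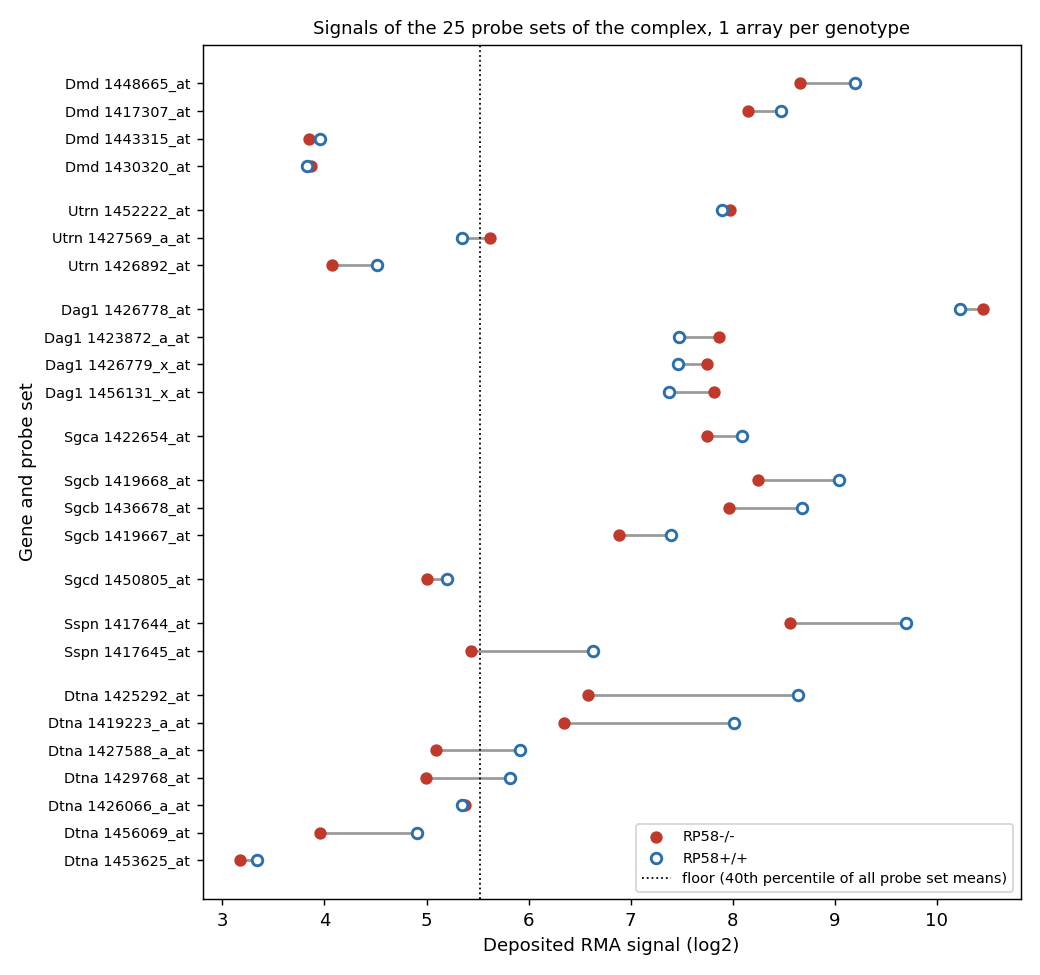
Deposited log2 signals of all 25 probe sets of the 8 genes, with the RP58-/- array as filled red points and the RP58+/+ array as open blue points, joined by a line for each probe set; the dotted line marks the floor at 5.52. The widest gaps are those of the brightest Dtna probe sets, and all 4 Dag1 probe sets have the RP58-/- point on the right.

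Dystrophin, the actin-binding core of the complex, was close to the 1.5-fold limit without reaching it. The brightest Dmd probe set, 1448665_at, was at 8.65 on the RP58-/- array and 9.20 on the RP58+/+ array, a difference of -0.55 or 1.46-fold. The other Dmd probe set above the floor, 1417307_at, was at 8.15 on the RP58-/- array and 8.47 on the RP58+/+ array (-0.32). Over these 2 probe sets the mean difference was -0.43 ± 0.16 (SD between probe sets). Both were below 0, as in 32.4% of genes with 2 probe sets above the floor. The remaining 2 Dmd probe sets read 3.85 and 3.87 on the RP58-/- array and 3.96 and 3.83 on the RP58+/+ array, far under the floor. Dmd is X-linked, and among 446 X-linked genes above the floor 11.7% were lower by at least 1.5-fold, against 6.38% of 13563 autosomal genes. The median X-linked gene differed by -0.06. The part of the sex-linked signal in the Dmd value was not tested.

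Utrophin, the autosomal relative of dystrophin that lines the membrane of fetal fibres and later gathers at the neuromuscular junction, was nearly level. Its brightest probe set, 1452222_at, was at 7.97 on the RP58-/- array and 7.89 on the RP58+/+ array (0.08). The other 2 Utrn probe sets were under the floor and disagreed: 1427569_a_at was at 5.62 on the RP58-/- array and 5.35 on the RP58+/+ array (0.27), and 1426892_at at 4.08 on the RP58-/- array and 4.52 on the RP58+/+ array (-0.44). On the brightest probe sets, the Utrn difference exceeded the Dmd difference by 0.63, and with the other Dmd probe set above the floor by 0.40. Only the larger of these exceeds 1.5-fold.

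Dystroglycan, which is made as 1 precursor and cut into the laminin-binding alpha subunit and the membrane-spanning beta subunit, was the only member with every probe set above 0. The 4 Dag1 probe sets were at 10.45, 7.87, 7.75 and 7.81 on the RP58-/- array and at 10.22, 7.47, 7.46 and 7.38 on the RP58+/+ array. Their differences were 0.23, 0.40, 0.28 and 0.44, with a mean of 0.34 ± 0.10 (SD between probe sets, n = 4), and none reached 1.5-fold. Of 497 genes with 4 probe sets above the floor, 11.9% had all of them above 0. Probe sets 1426779_x_at and 1456131_x_at are of a kind whose probes may match other transcripts.

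The sarcoglycan subcomplex was lower in part. Sgcb, which encodes the beta subunit around which the sarcoglycans assemble, was at 8.25, 7.96 and 6.88 on the RP58-/- array and at 9.04, 8.68 and 7.40 on the RP58+/+ array. All 3 probe sets were below 0, with differences of -0.79, -0.72 and -0.51 and a mean of -0.68 ± 0.14 (SD between probe sets, n = 3), and 2 of them passed 1.5-fold. All probe sets below 0 were found in 23.2% of the 1364 genes with 3 probe sets above the floor. Sgca, which encodes the alpha subunit made in striated muscle, had 1 probe set, at 7.75 on the RP58-/- array and 8.09 on the RP58+/+ array (-0.34, 1.27-fold). Sgcd, which encodes the delta subunit, also had 1 probe set, at 5.01 on the RP58-/- array and 5.20 on the RP58+/+ array (-0.19). Both Sgcd signals lay under the floor, so no level can be stated for it. Sgcd is in none of the counts of genes or probe sets above the floor.

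Sarcospan, the small membrane protein with 4 membrane-spanning stretches that binds the sarcoglycans, was lower by more than 2-fold on its bright probe set. Probe set 1417644_at was at 8.56 on the RP58-/- array and 9.69 on the RP58+/+ array (-1.14, 2.20-fold lower), and among all genes 2.31% were lower and 0.908% higher by at least 2-fold. The dimmer probe set, 1417645_at, was at 5.43 on the RP58-/- array, just under the floor, and 6.63 on the RP58+/+ array. Set against the floor, that probe set was at least 2.15-fold lower. By its brightest probe set Sspn was the 248th lowest of 14093 genes, and Sgcb the 508th.

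Dystrobrevin had the largest difference of the members. Dtna encodes alpha-dystrobrevin, which binds dystrophin through paired coils and carries syntrophins. Its brightest probe set, 1425292_at, was at 6.58 on the RP58-/- array and 8.64 on the RP58+/+ array (-2.06, 4.18-fold lower), the 42nd lowest of 14093 genes. Probe set 1419223_a_at was at 6.35 on the RP58-/- array and 8.01 on the RP58+/+ array (-1.66, 3.16-fold lower). Together they averaged -1.86 ± 0.28 (SD between probe sets, n = 2). Of 5 more Dtna probe sets under the floor, 4 were below 0, and the sizes were smaller. Probe sets 1427588_a_at, 1429768_at and 1456069_at were at 5.09, 4.998 and 3.96 on the RP58-/- array and at 5.91, 5.81 and 4.91 on the RP58+/+ array, with differences of -0.82, -0.82 and -0.95. The last 2, 1426066_a_at and 1453625_at, were at 5.37 and 3.17 on the RP58-/- array and at 5.35 and 3.34 on the RP58+/+ array (0.02 and -0.17). Dtna is spliced into several forms, and which of them each probe set reads was not examined here.

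**Figure D2:**
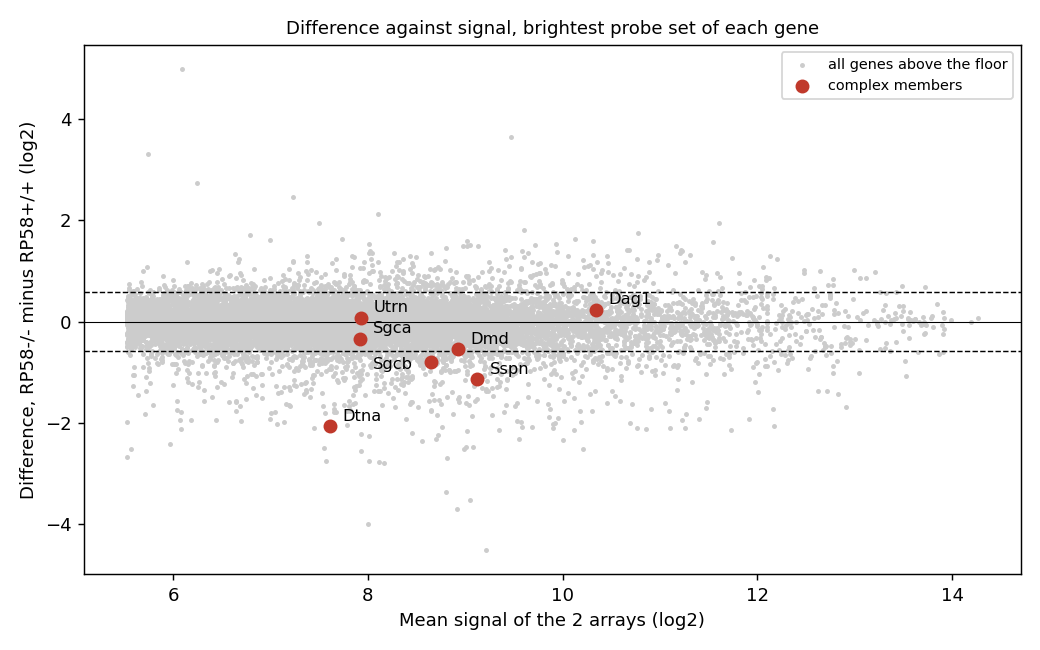
Difference (RP58-/- minus RP58+/+, log2) against the mean signal of both arrays (log2) for the brightest probe set of each of 14093 genes above the floor (grey), with the 7 members above the floor in red and dashed lines at 1.5-fold. Dtna at -2.06 stands farthest from 0, Sspn and Sgcb lie below the lower line, Dmd lies just inside it, and Utrn and Dag1 lie above 0.

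The pattern closest to that of a member was found by distance in the plane of both log2 signals, which over 2 arrays means only a like level and a like difference. For Dtna the nearest genes were Fsd2 (6.66 on the RP58-/- array and 8.45 on the RP58+/+ array), Lrrc39 (6.76 on the RP58-/- array and 8.54 on the RP58+/+ array) and Fgf13 (6.78 on the RP58-/- array and 8.56 on the RP58+/+ array), at distances of 0.20, 0.21 and 0.22. For Dmd they were Lgr4, Calml4 and Bag3, at distances of 0.005, 0.016 and 0.026.

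The start regions of 4 members are shown because they are those of dystrophin, of the lower genes Sgcb and Sspn, and of Sgca, the only member searched with a match to the core of the known RP58 site. RefSeq start regions (GRCm38.p6) were found for 7 of the 8 genes, as 10 starts in all, and the 250 bases before each start were searched on both strands. The gene without a start region was Dtna, so Dtna was not searched. The motifs were ACATCTG, the core of the sequence that RP58 is known to bind, CANNTG, the E-box bound by MyoD-type factors, the CArG box of serum response factor and the MEF2 box. Each ACATCTG match is also a CANNTG match. Capitals mark all matches, the last base printed is the one before the start, and the upstream start of Dmd and the downstream start of Sspn are given.
Dmd (chrX:82948620-82948869, + strand): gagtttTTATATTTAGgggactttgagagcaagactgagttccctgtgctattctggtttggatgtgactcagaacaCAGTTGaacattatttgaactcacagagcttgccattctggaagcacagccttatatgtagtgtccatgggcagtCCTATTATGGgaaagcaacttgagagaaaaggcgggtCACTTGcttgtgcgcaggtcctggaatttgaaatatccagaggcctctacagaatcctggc
Sgca (chr11:94976328-94976577, - strand): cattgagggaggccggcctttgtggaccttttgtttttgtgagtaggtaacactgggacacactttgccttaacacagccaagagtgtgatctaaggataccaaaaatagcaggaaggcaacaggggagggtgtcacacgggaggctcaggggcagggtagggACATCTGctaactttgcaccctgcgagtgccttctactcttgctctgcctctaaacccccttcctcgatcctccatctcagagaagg
Sgcb (chr5:73647738-73647987, - strand): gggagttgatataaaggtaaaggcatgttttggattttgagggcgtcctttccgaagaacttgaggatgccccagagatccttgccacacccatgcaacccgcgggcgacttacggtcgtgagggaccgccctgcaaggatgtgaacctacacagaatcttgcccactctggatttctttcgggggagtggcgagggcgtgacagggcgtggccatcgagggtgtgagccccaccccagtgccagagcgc
Sspn (chr6:145933872-145934121, + strand): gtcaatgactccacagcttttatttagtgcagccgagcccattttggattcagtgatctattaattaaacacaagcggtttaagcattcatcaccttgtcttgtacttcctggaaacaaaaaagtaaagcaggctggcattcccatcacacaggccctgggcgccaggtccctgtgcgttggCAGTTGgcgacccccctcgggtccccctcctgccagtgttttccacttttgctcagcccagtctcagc
The Sgca region holds ACATCTG 87 bases before the start, as do 3.71% of 32851 start regions somewhere in the same window. The Dmd region printed holds E-boxes 173 and 61 bases before the start, a CArG box at 98 bases and a MEF2 box at 244 bases. The other Dmd start has no match to any of the 4 motifs. E-boxes occurred in 7 of the 10 member regions and in 66.2% of all regions, CArG boxes in 1.47% and MEF2 boxes in 2.92%. The Dag1 regions overlap and share the same E-box, which is counted for each of them. The Sspn region printed holds 1 E-box, 68 bases before its start, and the other Sspn start has no match. The Sgcb region, whose gene was below 0 on all 3 probe sets, has no match to any of the 4 motifs. A match is a description of the letters, and binding was not measured.

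Among further subunits of the complex, only the syntrophin gene Sntb1 passed 1.5-fold. Of 11 listed, 8 had a named probe set and 7 were above the floor, with 1 lower, 0 higher and a median of 0.17. On the poly-A scale 0 were lower and 6 higher, and Sntb1 was at -0.11. Sntb1, which encodes beta-1-syntrophin, an adaptor bound to dystrophin and dystrobrevin, was at 8.65 on the RP58-/- array and 9.50 on the RP58+/+ array (-0.85). Its other 3 probe sets above the floor were at -1.28, -1.31 and -1.09, and 2 under the floor at 0.14 and 0.38. The largest of the others were Sntb2 (0.30), the dystrophin-related gene Drp2 (0.24) and Sgce (0.19), which encodes the epsilon-sarcoglycan of many tissues. Nos1, the nitric oxide synthase that syntrophin anchors, differed by -0.16, -0.20 and -0.33 on its 3 probe sets above the floor.

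Pairs of related genes differed unequally within the arrays. These pairs were chosen after their values were seen. Dtnb, which encodes beta-dystrobrevin, mostly of non-muscle tissue, was at 6.83 on the RP58-/- array and 6.66 on the RP58+/+ array (0.17), so that its difference exceeded that of Dtna by 2.24, or by 1.84 with the other Dtna probe set. The Sgce difference exceeded that of Sgca by 0.53, which is within 1.5-fold. The Sntb2 difference exceeded that of Sntb1 by 1.16, and by 0.80 to 1.61 over 8 pairs of probe sets.

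**Figure D3:**
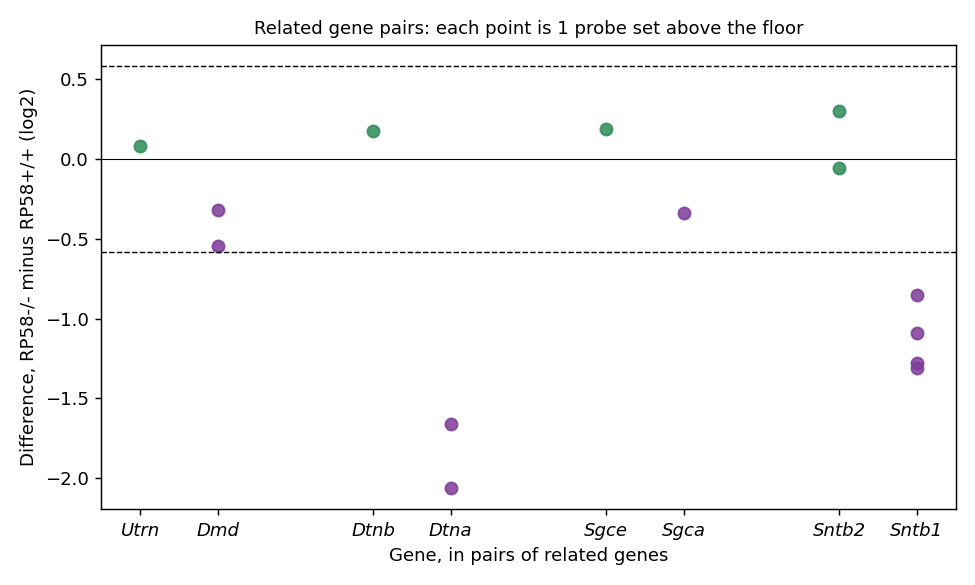
Differences (RP58-/- minus RP58+/+, log2) of each probe set above the floor in 4 pairs of related genes, with dashed lines at 1.5-fold. On the deposited scale Dmd, Dtna, Sgca and Sntb1 lie below 0 on every probe set shown, and their partners Utrn, Dtnb, Sgce and Sntb2 lie between -0.06 and 0.30.

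The next lists hold the proteins that dystroglycan binds outside the cell and the enzymes that prepare it for them. Of 13 ligand genes listed, 12 had a named probe set and 11 were above the floor, of which 1 was lower and 0 were higher (median 0.18). The lower gene was Lama2, which encodes the laminin alpha chain of the muscle basement membrane, at 8.53 on the RP58-/- array and 9.14 on the RP58+/+ array (-0.60, 1.52-fold). With loess centring Lama2 was at -0.58 and 0 of the 11 passed, and on the poly-A scale it was at 0.14, with 0 of the 11 lower and 8 higher. The next largest were Lamb2 (0.41) and the neurexin gene Nrxn2 (0.33). Of 17 genes for building the sugar chain of alpha-dystroglycan, 13 had a named probe set and 12 were above the floor, and 0 of these passed in either direction (median 0.20). The largest differences were those of B3galnt2 (-0.576, just inside the limit), whose other probe set above the floor was at 0.10, Pomt1 (0.51), which starts the chain, and Rxylt1 (-0.40).

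Partners of the complex at the costamere, the rib-like site where it meets the outermost myofibrils, were mixed. Of 13 above the floor, 3 were lower and 1 was higher, with a median of -0.13. Of these 4, Cav3 alone passed when each gene took the mean over its probe sets above the floor, and on the poly-A scale 2 of the 13 (Cav3 and Des) were lower and 7 higher. Caveolin 3 (Cav3), which binds dystroglycan at the muscle membrane, was lower by 4.41-fold, at 8.27 on the RP58-/- array and 10.42 on the RP58+/+ array. Desmin (Des), the muscle intermediate filament, had a difference of -1.40 at the brighter and 0.27 at the dimmer probe set, the ankyrin gene Ank3 differed by -0.72, -0.60, -0.18 and -0.09 on its 4 probe sets above the floor, and talin (Tln1) by 0.65 and -0.35 on its 2 probe sets above the floor.

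Markers of muscle fibres were lower and markers of liver, mesothelium and lung higher on the same arrays. Of 15 fibre markers, 12 were lower and 0 were higher, and the median of -1.06 lay in a span of -2.13 to -0.21. Their linear signals summed to 64098 on the RP58-/- array and 123867 on the RP58+/+ array, a ratio of 0.52. None of the 15 was under the floor. The differences of Dtna and Sspn lie below that median and within the span, those of Sgcb, Dmd and Sgca between the median and the upper end, and those of Utrn and Dag1 above the span. Of liver markers 7 of 11 were higher and 0 lower, and their signals summed to 125608 on the RP58-/- array and 87284 on the RP58+/+ array. Of mesothelium markers 4 of 8 were higher (summed signal 12637 on the RP58-/- array and 8170 on the RP58+/+ array), and of lung epithelium markers 4 of 6 (3219 on the RP58-/- array and 672.5 on the RP58+/+ array). Most of the lung sum came from the surfactant gene Sftpc, at 11.30 on the RP58-/- array and 7.65 on the RP58+/+ array, and without it the other 5 summed to 705 on the RP58-/- array and 471.3 on the RP58+/+ array, a ratio of 1.496 in place of 4.79. The lung markers Sftpa1, Scgb1a1 and Nkx2-1 were under the floor by the mean of both arrays. The brighter Sftpa1 probe set missed the floor narrowly (mean 5.5196 against 5.5220). It was at 6.18 on the RP58-/- array and 4.85 on the RP58+/+ array.

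Markers of other cell types that make utrophin or dystroglycan had medians closer to 0. Smooth muscle markers had a median of 0.12, with Synpo2 (-1.82) and Smtn (-0.76) lower and Myh11 (0.67) higher among 9, and their summed signal was 3518 on the RP58-/- array and 4106 on the RP58+/+ array. Synpo2, at 7.97 on the RP58-/- array and 9.79 on the RP58+/+ array, had the largest difference of the genes in that sum. How far the lower sum rests on Synpo2 was not tested. The other Synpo2 probe sets above the floor were at -0.71 and -0.12. Endothelial markers had a median of -0.22, with Cldn5 (-0.69) lower among 7 and Tie1 under the floor (1550 on the RP58-/- array and 1633 on the RP58+/+ array). Schwann cell markers, by their brightest probe sets, had a median of 0.30, with 0 of 5 past 1.5-fold, Erbb3 (0.58), Mbp (0.42) and S100b (0.30) in front and Egr2 under the floor (3086 on the RP58-/- array and 2518 on the RP58+/+ array). The other Mbp probe sets above the floor were at 0.06, 1.72, 0.49 and 0.54, and the other Erbb3 probe set above the floor was at -0.19. The part of fibre content and of these tissues in the members' differences was not tested.

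**Figure D4:**
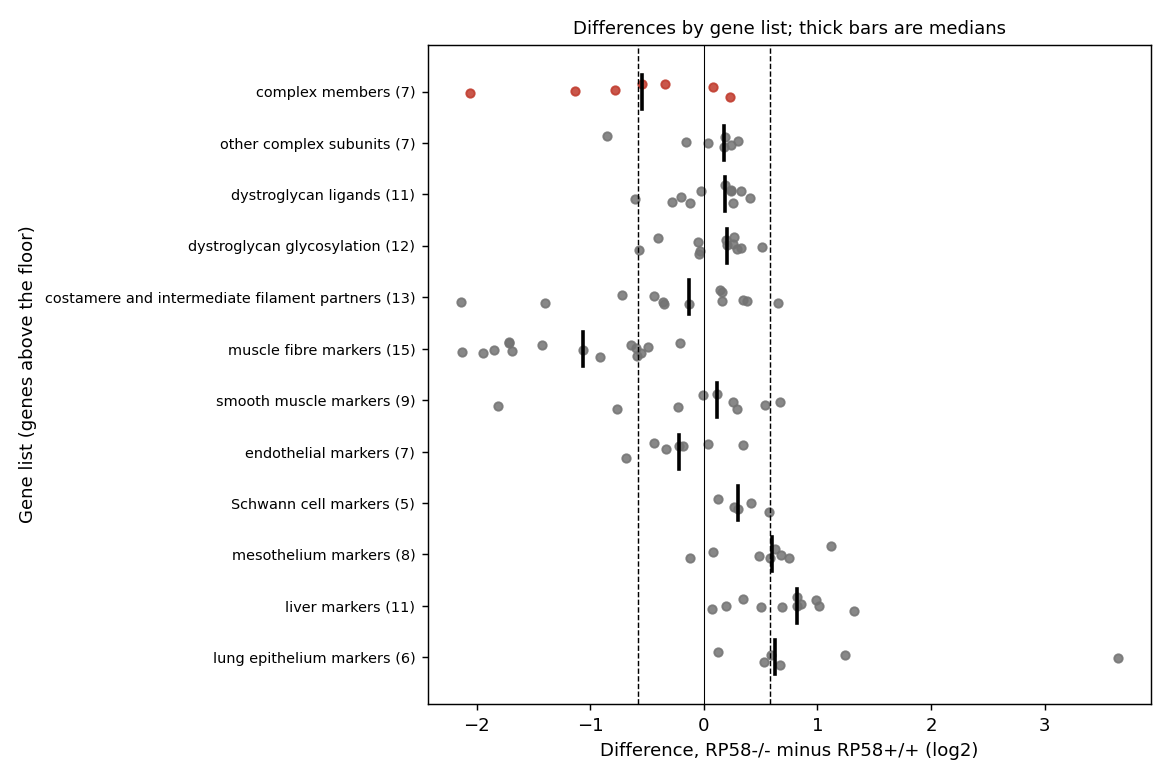
Differences (RP58-/- minus RP58+/+, log2) of the genes above the floor in each list, 1 point per gene from its brightest probe set, with the number of genes in parentheses, thick bars at the medians and dashed lines at 1.5-fold. The 7 complex members have a median of -0.55, between the fibre markers at -1.06 and the other complex subunits at 0.17.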

How the data were processed

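Diaphragm RNA of 1 RP58-/- and 1 RP58+/+ sample was labelled with biotin and hybridised to Affymetrix arrays, per the labels' protocols. The authors computed the deposited log2 signals with RMA, which corrects background, equalises the arrays and summarises each probe set, per the series' design text. The submitters' processing notes list Affymetrix Expression Console 1.1. The sorted columns differed by at most 0.12. RMA gives no detection call and compresses dim and very bright signals.

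Differences were taken in pandas 2.3.3 (Python 3.11.15). Of the probe sets, 34945 had 1 gene symbol in the platform annotation, 932 had several, 9160 had none here and 64 were controls; only the first kind was read as genes. Chromosomes came from a RefSeq table of GRCm38.p6. The code for the size rule and the probe set SD was run on simulated data. Their noise was set to the probe set SD and held no variation between embryos, so the run does not check the rule on these arrays. The members and gene lists were chosen with earlier results of these data known. The text names all members, the genes of the other subunit, ligand, enzyme and costamere lists past the rule or otherwise the 3 largest, the sex-linked genes, and the 3 genes nearest to Dtna and to Dmd. Of the marker lists, counts are given with few names. Alternatives were the mean over probe sets, other floors, probe set kinds, centring, scaling and a 2-fold rule. The lung sum without Sftpc was added after seeing the data.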

Additional observations from a re-analysis of the deposited data

How the results depend on the processing

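With 1 array per genotype no library could be left out. No paired analysis was possible because each genotype has 1 array and no test was run. Dtna, Sspn and Sgcb were each lower by 1.5-fold with the mean over probe sets, with no floor, with the floor at the 60th percentile, without _s_at, _x_at and _a_at probe sets, and with median or loess centring. At a 2-fold rule Dtna and Sspn did so. The directions and sizes depend on scaling. With the poly-A control RNAs as the scale, which moves 70.9% of all genes above 1.5-fold, 3 members passed (1 lower, Dtna, and 2 higher), 7 member probe sets passed (2 lower and 5 higher), and the members' median was 0.20; on that scale the differences of Dmd (0.20 and 0.43 on its 2 probe sets above the floor), Sgca (0.41) and the Sgcb probe sets 1436678_at (0.0249) and 1419667_at (0.23) were above 0, and those of Sspn (-0.39) and the brightest Sgcb probe set (-0.04) were below 0 within 1.5-fold. Under the same scale 6 other subunits, 8 ligands and 10 glycosylation enzymes passed, all of them higher, as did 9 costamere partners (2 lower and 7 higher), 7 fibre markers (all lower) and 290 X-linked genes (13 lower and 277 higher), and the split of all genes was 182 lower and 9990 higher, against 918 lower and 540 higher as deposited. The 2-fold rule left 0 other subunits, 0 ligands, 2 costamere partners and 20 X-linked genes (as against 69). Loess centring left 0 ligands, median centring gave 1 glycosylation enzyme, and the mean over probe sets left 1 costamere partner. Why the poly-A controls differed was not tested. Probe sets under the floor limit what can be read for Sgcd, for 5 of the Dtna probe sets, for the dimmer Sspn probe set on the RP58-/- array and for 2 each of Utrn and Dmd.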
